A study of Mus musculus with 99 samples.

Results

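The genes described here are 41 members of the pathway that takes up glucose, splits it to pyruvate and sends the pyruvate to lactate or to the mitochondrion, together with creatine kinases. They were found by symbol among the 55291 genes of a table of read counts from single cells of the mouse cochlea, and all 41 were present. The members are 6 glucose transporters, 3 monocarboxylate transporters, 17 enzymes of glycolysis, both lactate dehydrogenase subunits, 6 genes of the pyruvate dehydrogenase complex and its kinases, 4 PFKFB enzymes and 3 creatine kinases.

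The cells were hair cells of C57BL/6 mice, picked by hand for the red fluorescent protein tdTomato and made into full-length cDNA libraries one by one. Outer hair cells (OHCs) amplify sound by changing length, and inner hair cells (IHCs) signal to the auditory nerve. The reference group held 32 wild-type OHCs at postnatal day 30 of the genotype Slc26a5-CreER/+; Ai9/+, in which the OHC gene Slc26a5 drives an inducible Cre and Ai9 supplies tdTomato. The other group held 67 converted IHCs (cIHCs) at postnatal day 42 of the genotype Slc26a5-CreER/+; Rosa26Tbx2/+, which are former OHCs made to express the transcription factor Tbx2 from the Rosa26 locus. Both groups carry the Cre allele, and no IHC that arose without Tbx2 expression from the Rosa26 locus is among the cells. Age and genotype differ together between the groups, so their parts in any difference cannot be told apart. The labels name no animal. Each group therefore counts as 1 sample, differences are given without a test, and none was checked against replicate animals.

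Glycolysis turns glucose into pyruvate in the cytosol and yields ATP and NADH. Phosphofructokinase and pyruvate kinase are its main control points, and the PFKFB enzymes make or break down fructose 2,6-bisphosphate, the strongest activator of phosphofructokinase. Lactate dehydrogenase tetramers interconvert pyruvate and lactate: subunit A (Ldha) prevails in tissues that make lactate and subunit B (Ldhb) in those that oxidise it. The mitochondria of hair cells supply much of the ATP for ion pumping and transmitter release, and creatine kinases shuttle high-energy phosphate from them to sites of use.

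Levels are CPM, the read counts scaled to a common library total, pooled by summing the reads of a group's cells, or in single cells, and a difference is the log2 ratio of the pooled CPM, cIHC over OHC. The median gene of the 10041 that reached 10 pooled CPM in either group had a log2 ratio of 0.25. A gene was called higher or lower where its log2 ratio lay at least 1 (2-fold) above or below this median gene. The spread between cells is given by the lowest, median and highest cell and by pairing every cIHC with every OHC and counting the share of pairs in which the cIHC had the higher CPM. Intervals are exact at 95%. Those of CPM and of ratios cover the error of counting reads, which without molecular identifiers are no independent count of molecules. Those of shares of cells take the cells as independent draws and cover no difference between animals.

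Total counts were 242054710 over the OHCs and 544012348 over the cIHCs, with 5656512 to 9287413 per OHC and 4677682 to 13792672 per cIHC. The labels matched the hair cell markers. The summed level of 5 OHC markers was 48843 CPM in OHCs and 262 CPM in cIHCs, most of it from Ocm (44926 and 239 CPM). That of 6 IHC markers was 621 and 6530 CPM, and that of 6 markers of all hair cells 6519 and 4431 CPM. The IHC sum includes Tbx2 (0.012 and 731 CPM), which the cIHCs were made to express, so its level is no check of the label. Other markers in that sum were Slc17a8 (69.2 and 1179 CPM) and Otof (543 and 2956 CPM). More genes had reads in a cIHC (median 8546) than in an OHC (median 6068.5), also among cells thinned to 5770000 reads (8329 and 5891), and mitochondrially encoded genes took a median of 3.47% and 6.68% of counts. Xist reads of at least 10 CPM were present in 4 OHCs and 55 cIHCs, and Y-linked reads in 24 and 12, so the groups also differ in the make-up of sexes. Of 10 supporting cell markers, 9 had reads in OHCs and 8 in cIHCs (summed 0 to 1852 and 0 to 899 CPM per cell; Slc1a3 at 0 in OHCs, Epyc and Prox1 at 0 in cIHCs). All 5 glia markers had reads in OHCs and 4 in cIHCs (0 to 174 and 0 to 119 CPM; Pmp22 at 0 in cIHCs), and of 8 blood and macrophage markers 5 and 4 had reads (0 to 67.0 and 0 to 337 CPM; C1qa and Cx3cr1 at 0 in both groups). The summed level of the latter list was 3.41 and 52.3 CPM, most of it from C1qb, which was at 0 in OHCs and 48.2 CPM in cIHCs, with reads in 35 of 67 cells. Of 5 muscle markers 3 had reads in each group (0 to 166 and 0 to 88.7 CPM), with Ckm at 0 in both. All 4 neuron markers had reads in both groups, and their summed level was 256 and 527 CPM (0 to 910 and 164 to 879 CPM per cell, medians 232 and 537). Of these, Nefm stood at 19.2 and 176 CPM and Tubb3 at 0.0372 and 10.9 CPM. The part of these features in the differences below was not tested, except where values without such cells are given.

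Several steps of glycolysis stood higher in cIHCs, while a transporter of lactate and 3 isozymes held by OHCs stood lower. Of the 41 members, 28 reached 10 CPM in either group. Of these, 8 rose in cIHCs (28.6%): Pfkl, Aldoc, Tpi1, Pgk1, Pgam1, Pkm, Pdha1 and Pfkfb3. Over all genes 2151 of 10041 rose, 21.4%. A further 5 members fell (17.9%): Slc2a1, Slc16a7, Pfkp, Ldhb and Pfkfb2, against 1855 genes, 18.5%, over all genes. Neither share is far from that of all genes. The median log2 ratio of the 28 members was 0.70, which is 0.45 above the median gene. This excess was 0.17 among cells with Y-linked reads, 0.10 without cells that held markers of supporting cells or glia, and 0.03 among cells with Xist reads. By role, 3 of 6 enzymes of the lower part of glycolysis rose and 0 fell, 3 of 8 of the upper part rose and 1 fell, and of 3 PFKFB genes 1 rose and 1 fell. Of the pyruvate dehydrogenase genes 1 of 5 rose, of the lactate dehydrogenase pair 1 fell, and the only transporters that reached 10 CPM, Slc2a1 and Slc16a7, both fell. Differences between roles were not tested.

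**Figure D1:**
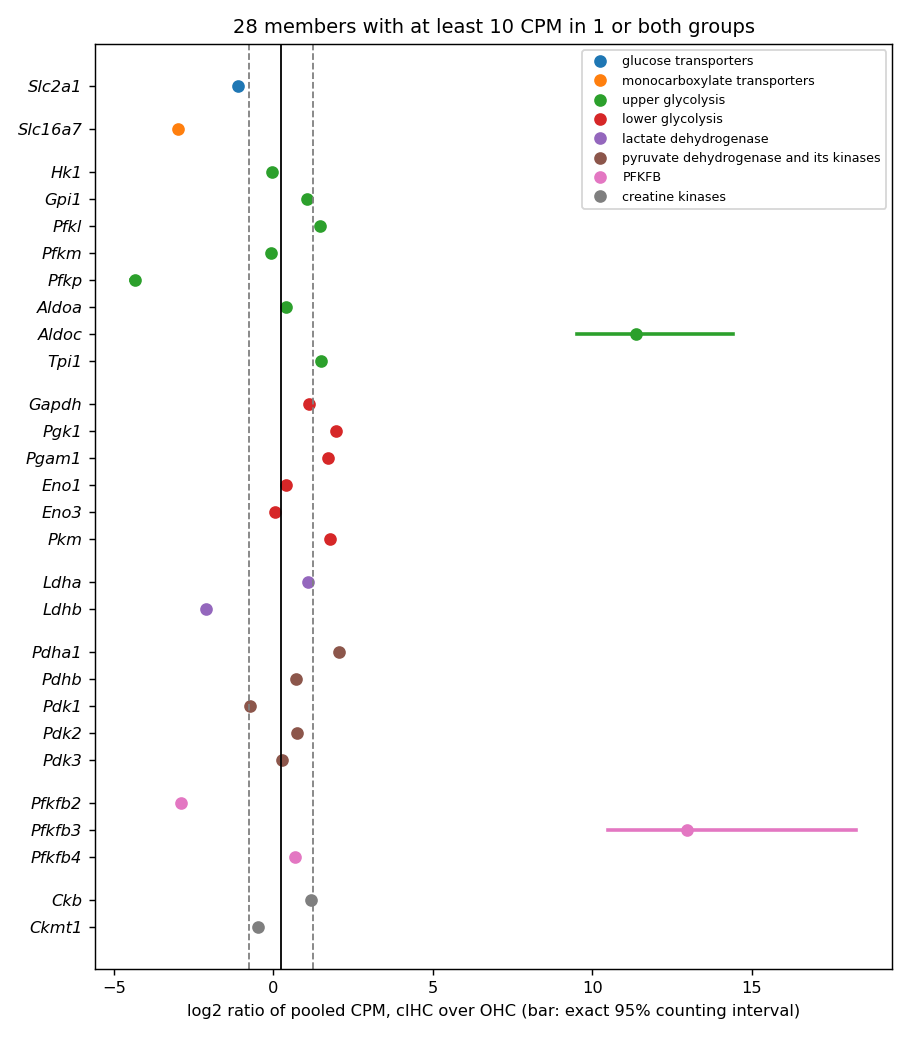
Log2 ratio of pooled CPM, cIHC over OHC, for the 28 members that reached 10 CPM in either group, coloured by role; bars are exact 95% counting intervals, hidden by the point for all but Aldoc and Pfkfb3, the solid line is the median gene (0.25) and the dashed lines lie 1 log2 unit to either side of it. Points right of the right dashed line are the 8 members that rose, points left of the left one the 5 that fell, and Aldoc and Pfkfb3 lie far to the right because OHCs held 2 and 1 reads of them.

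Promoters are shown for 3 members of the PFKFB and lactate dehydrogenase families, whose isozyme make-up differs between the groups, as given with each family. Sequences are those of RefSeq on GRCm38.p6, from 250 bases before to 50 after an annotated start, read 5′ to 3′ on the strand of the gene. Capitals mark the core of the hypoxia response element (ACGTG, or its variant GCGTG) on either strand, and CACGTG, which holds ACGTG and is the E-box read by factors of the Myc and ChREBP kind. One of 2 starts of Pfkfb3, chr2:11502041-11502340 on the minus strand, has CACGTG at 1 place, which reads as ACGTG on both strands, and GCGTG at 2 places. One of 3 starts of Pfkfb2, chr1:130715772-130716071 on the minus strand, has the same counts. The start of Ldhb, chr6:142507908-142508207 on the minus strand, has GCGTG at 1 place and no ACGTG.
Pfkfb3: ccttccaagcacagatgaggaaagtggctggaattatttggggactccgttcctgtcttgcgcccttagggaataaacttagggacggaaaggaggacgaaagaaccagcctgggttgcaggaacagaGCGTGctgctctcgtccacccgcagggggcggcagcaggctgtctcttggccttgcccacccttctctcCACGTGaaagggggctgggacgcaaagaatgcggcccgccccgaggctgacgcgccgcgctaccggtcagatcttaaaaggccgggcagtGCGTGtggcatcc
Pfkfb2: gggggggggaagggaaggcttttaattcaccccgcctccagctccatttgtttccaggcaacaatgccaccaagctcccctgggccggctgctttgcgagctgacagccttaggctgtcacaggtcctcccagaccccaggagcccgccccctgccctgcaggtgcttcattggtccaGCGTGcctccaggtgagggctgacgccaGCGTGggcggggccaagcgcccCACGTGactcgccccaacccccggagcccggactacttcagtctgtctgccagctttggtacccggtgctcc
Ldhb: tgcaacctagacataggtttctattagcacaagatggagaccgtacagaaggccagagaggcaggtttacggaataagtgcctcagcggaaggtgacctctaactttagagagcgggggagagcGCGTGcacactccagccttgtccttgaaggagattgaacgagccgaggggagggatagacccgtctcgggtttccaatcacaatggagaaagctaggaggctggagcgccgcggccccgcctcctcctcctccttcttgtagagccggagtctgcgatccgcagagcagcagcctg

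Of the 41 members, 38 matched 58 such promoters. ACGTG or GCGTG was present in 41 of the 58 (70.7%), against 43.8% of all 32851 promoters of the same length. CACGTG was present in 6 (10.3%), against 7.15% of all. The members' promoters were also richer in G and C, with a median of 60.5% against 52.7%, and the part of base composition in the first difference was not tested. Pfkfb3, which rose, and Pfkfb2, which fell, hold the same number of each motif in the windows printed above, but not at their other starts. The other start of Pfkfb3 has ACGTG at 1 place and no GCGTG. For Pfkfb2, chr1:130714527-130714826 has ACGTG at 1 place and no GCGTG, and chr1:130715999-130716298 has GCGTG at 1 place and no ACGTG. The part of the motifs in the differences in level was not tested.

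The glucose transporters were sparsely detected. Slc2a1 (GLUT1), the main transporter for basal glucose entry, had 37.8 CPM in OHCs (0, 0 and 218 CPM in the lowest, median and highest cell) and 17.5 CPM in cIHCs (0, 0 and 164). It fell, with a log2 ratio of -1.11. The groups overlapped throughout, since 14 of 32 OHCs and 32 of 67 cIHCs had reads and the cIHC was the higher cell in 34.5% of pairs and the lower in 36.1%. Slc2a8 (GLUT8), an intracellular transporter, stayed below 10 CPM with 5.64 CPM in OHCs and 9.44 CPM in cIHCs, and had reads in 3 of 32 OHCs and 28 of 67 cIHCs. Slc2a4 and Slc2a5, the insulin-responsive and the fructose transporter, had no read in OHCs and 1.15 and 1.51 CPM in cIHCs, from 2 cells each. Slc2a3 (GLUT3), the neuronal transporter, had 3 reads in OHCs and 2 in cIHCs, and Slc2a10 had none in either group. A count of 0 in 32 and 67 cells allows shares of cells with reads of up to 10.9% and 5.36%.

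Monocarboxylate transporters move lactate and pyruvate across the membrane. Slc16a7 (MCT2), the form with high affinity that is typical of cells that import lactate, had 67.2 CPM in OHCs (cells 0, 0.53 and 425) and 8.43 CPM in cIHCs (cells 0, 0 and 129). It fell with a log2 ratio of -2.995 (-3.04 to -2.95). Reads were present in 19 of 32 OHCs (59.4%) and 19 of 67 cIHCs (28.4%), so that the groups overlapped at the low end, and the OHC was the higher cell in 53.7% of pairs. Slc16a1 (MCT1) was at 0 in OHCs and 2.56 CPM in cIHCs, with reads in 7 cells, and Slc16a3 (MCT4), the exporter of lactate in strongly glycolytic cells, had 2 reads in OHCs and 1.69 CPM in cIHCs, in 6 cells. The 3 transporters together had 67.2 and 12.7 CPM. Per kilobase of exon, the share of Slc16a7 in the 3 was 99.97% in OHCs and 44.3% in cIHCs. Of counts not divided by length it was 99.99% and 66.5%. In single cells with reads of the 3, Slc16a7 was over 50% per kilobase in 19 of 20 OHCs and 16 of 27 cIHCs. Basigin (Bsg) and embigin (Emb), the chaperones that carry these transporters to the membrane, were within 2-fold, at 606 and 521 CPM and at 206 and 163 CPM.

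Hexokinase commits glucose to the cell by phosphorylating it. Hk1 had 53.9 CPM in OHCs (cells 0, 3.76 and 312) and 52.3 CPM in cIHCs (cells 0, 42.9 and 236), a log2 ratio of -0.04. It made up 99.98% of the hexokinase pair in OHCs and 97.6% in cIHCs per kilobase, as Hk2 had 2 reads in OHCs and 0.886 CPM in cIHCs, of which 1 cell gave 84.2%. Gpi1, the isomerase that follows, had 110 CPM in OHCs (cells 0, 71.5 and 385) and 229 CPM in cIHCs (cells 0, 206 and 927), within 2-fold of the median gene, with 74.5% of pairs higher in the cIHC.

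The liver-type gene Pfkl had 35.9 CPM in OHCs (cells 0, 0.07 and 262) and 99.0 CPM in cIHCs (cells 0, 83.9 and 412) and rose, with a log2 ratio of 1.46. The platelet-type gene Pfkp had 31.7 CPM in OHCs (cells 0, 1.74 and 155) and 1.55 CPM in cIHCs (cells 0, 0 and 46.7) and fell, with a log2 ratio of -4.35 (-4.45 to -4.25). Reads of Pfkp were present in 19 of 32 OHCs and 6 of 67 cIHCs, and no cIHC stood above the highest OHC. The muscle-type gene Pfkm was at 67.6 and 64.1 CPM. Per kilobase, Pfkm, Pfkl and Pfkp made up 72.3%, 19.2% and 8.44% of the 3 in OHCs, and 56.2%, 43.4% and 0.339% in cIHCs. Their summed level was 135 and 165 CPM. The shift toward Pfkl turned among cells with Xist reads, where Pfkl was 99.2% in the 4 OHCs and 43.5% in cIHCs and Pfkm was 0% and 56.3%; with Y-linked reads Pfkl was 19.7% and 42.9%. In GENCODE M21, 748 bases of the Pfkp exons overlap Pitrm1 on the other strand (4.33 CPM in OHCs, 18.2 CPM in cIHCs), and reads of both genes cannot be told apart without strand.

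**Figure D2:**
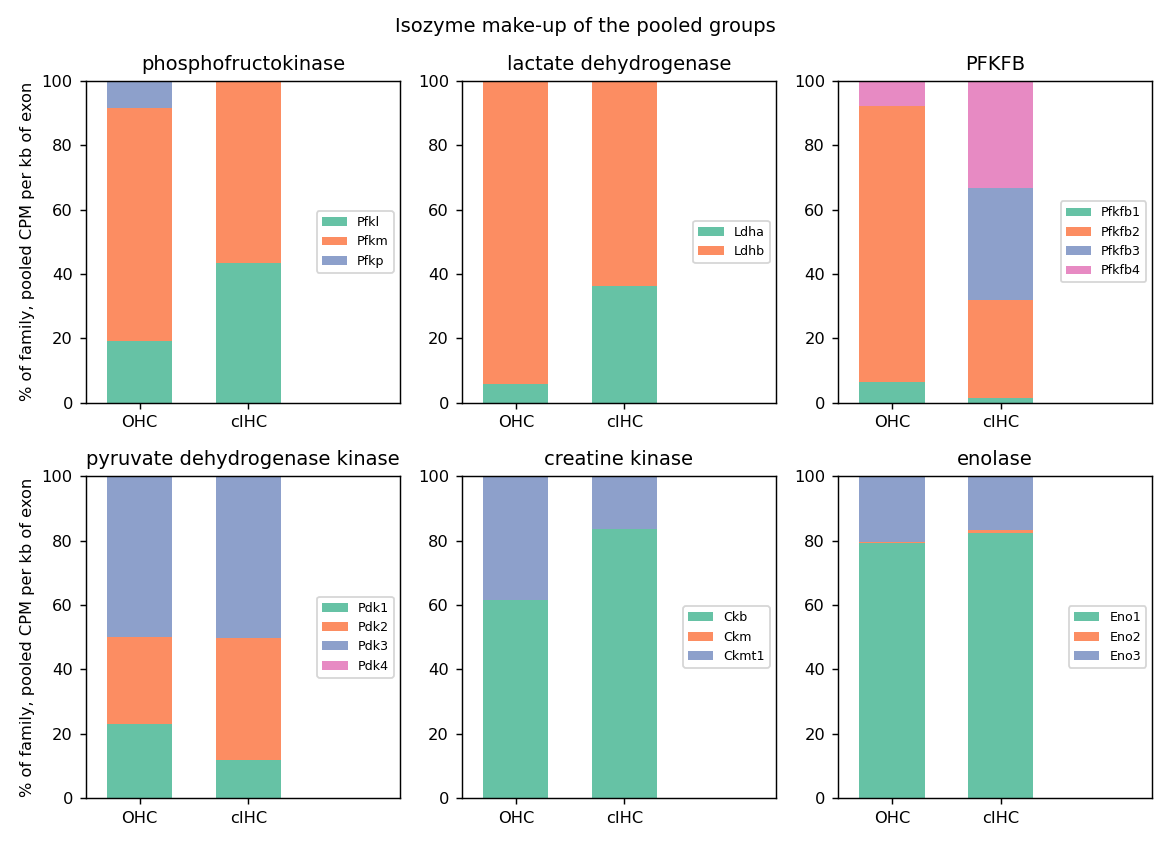
Share of each isozyme in the pooled level of 6 enzyme families, in CPM per kilobase of exon, with 1 bar per group. Of counts not divided by length, which the bars do not show, Ldhb was 88.3% in OHCs and 45.5% in cIHCs, and Pfkl 26.6% and 60.1%. In cIHCs the bars show less Ldhb (94.1% to 63.8%), more Pfkl (19.2% to 43.4%), a PFKFB family divided among Pfkfb2, Pfkfb3 and Pfkfb4, and more Ckb (61.4% to 83.5%); among cells with Xist reads, which hold only 4 OHCs, Pfkl went from 99.2% to 43.5% and Ldhb from 67.6% to 69.0%.

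Aldolase cleaves the doubly phosphorylated sugar, and triose phosphate isomerase (Tpi1) equalises its products. Aldoa, the main aldolase outside the liver, had 593 CPM in OHCs (cells 0.35, 514 and 1332) and 778 CPM in cIHCs (cells 53.6, 679 and 2216), within 2-fold. In GENCODE M21, 25 of its exon bases lie over Fam57b on the other strand, whose levels were 166 and 0.011 CPM. Aldoc, the aldolase of brain, had 2 reads in OHCs and 22.03 CPM in cIHCs. The ratio of the pooled levels is 11.38 on the log2 scale, with an interval of 9.53 to 14.43, and Aldoc rose by the rule. It remained a gene of a minority of cells: 19 of 67 cIHCs (28.4%) had reads, 1 of them gave 33.02% of the group's counts, and per kilobase Aldoc was 2.46% of aldolase in cIHCs. Tpi1 had 73.8 CPM in OHCs (cells 0, 0.14 and 503) and 207 CPM in cIHCs (cells 0, 170 and 979) and rose, with a log2 ratio of 1.49 and 77.2% of pairs higher in the cIHC.

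In the lower part of glycolysis, which yields the ATP, 3 of the 6 enzymes that reached 10 CPM rose, beside 21.4% of all genes, and among cells with Xist reads Pgk1 was no longer 1 of them. Pyruvate kinase (Pkm), which makes pyruvate and ATP, had 227 CPM in OHCs (cells 0, 202 and 605) and 784 CPM in cIHCs (cells 232, 740 and 1614). It rose with a log2 ratio of 1.79 (1.78 to 1.80), the cIHC was higher in 95.5% of pairs, and 47 of 67 cIHCs lay above every OHC. Counts per gene do not separate the M1 and M2 forms of this enzyme, which arise by splicing. Phosphoglycerate mutase 1 (Pgam1) had 65.1 CPM in OHCs (cells 0, 35.4 and 314) and 215 CPM in cIHCs (cells 6.22, 198 and 579). It rose with a log2 ratio of 1.73, with 88.7% of pairs higher in the cIHC. Its muscle form Pgam2 was below 10 CPM in both groups, at 5.85 and 6.67 CPM, and Pgam1 made up 82.5% of the pair in OHCs and 93.2% in cIHCs per kilobase.

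Phosphoglycerate kinase (Pgk1), the first step that makes ATP, had 12.6 CPM in OHCs (cells 0, 0 and 188) and 49.0 CPM in cIHCs (cells 0, 21.97 and 281) and rose, with a log2 ratio of 1.96. Reads were in 9 of 32 OHCs and 42 of 67 cIHCs. A single OHC gave 46.3% of that group's counts, and the log2 ratio was 2.69 when the highest OHC and the highest cIHC were left out. Gapdh, which precedes it, had 828 CPM in OHCs (cells 229, 781 and 1578) and 1792 CPM in cIHCs (cells 359, 1574 and 6868). Its log2 ratio of 1.11 lay within 2-fold of the median gene, yet the cIHC was higher in 86.5% of pairs and 33 cIHCs lay above every OHC. The reference transcripts hold 78 near-identical copies of Gapdh (at least 95% identity over at least 20% of it). With the 77 that are in the table added the log2 ratio was 1.25, which is 0.9999 above the median gene. How near Gapdh lies to the 2-fold limit therefore depends on how shared reads were counted.

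Enolase, which makes phosphoenolpyruvate, differed little. Eno1 had 246 CPM in OHCs (cells 0.12, 225 and 708) and 327 CPM in cIHCs (cells 0, 294 and 1435), a log2 ratio of 0.41. With its 3 near-identical copies added the log2 ratio was 0.06, so its direction against the median gene depends on how shared reads were counted. The muscle form Eno3 was at 20.5 and 21.3 CPM, and the neuronal form Eno2 was below 10 CPM, at 0.45 and 3.13 CPM.

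Summed over the 17 glycolytic enzymes, the level per cell was 1045, 2311 and 3676 CPM in the lowest, median and highest OHC and 1875, 4189 and 12695 CPM in the lowest, median and highest cIHC. The cIHC was higher in 90.5% of pairs, and 43 of 67 cIHCs lay above every OHC. Without Gapdh the medians were 1464 and 2663 CPM, with 89.3% of pairs higher in the cIHC. Part of this difference is shared with other genes, since the median gene itself had a ratio above 1 (1.19-fold). The log2 ratio of the pooled sum was 0.97, which is 0.72 above the median gene and so within 2-fold of it. Without Gapdh the sum lay 0.64 above the median gene.

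**Figure D3:**
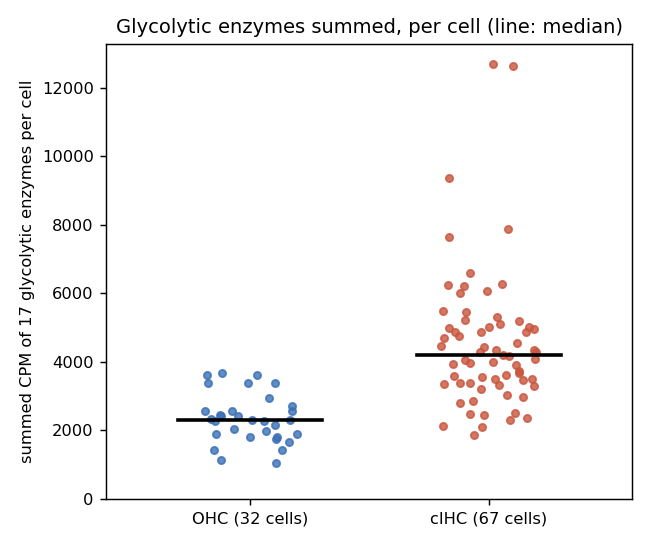
Summed CPM of the 17 glycolytic enzymes in each cell; each point is 1 cell, the line is the median of the group, and horizontal scatter has no meaning. The medians are 2311 CPM in OHCs and 4189 CPM in cIHCs, and the groups overlap between 1875 and 3676 CPM.

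Levels of 6 abundant enzymes (Gpi1, Aldoa, Gapdh, Pgam1, Eno1 and Pkm) were compared across cells as a description. Over their 15 pairs the median Spearman correlation of CPM was 0.13 among the 32 OHCs and 0.29 among the 67 cIHCs, with ranges of -0.16 to 0.39 and -0.12 to 0.54. All pairs of 2324 genes had a median of 0.002 in each group. Pkm and Gapdh correlated at 0.28 and 0.51. Cells of a group share depth and amplification as well as type, and these values carry no test.

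The summed level of lactate dehydrogenase was lower in cIHCs, and subunit B fell. Ldhb, subunit B, had 359 CPM in OHCs (cells 0, 299 and 954) and 83.6 CPM in cIHCs (cells 0, 3.60 and 2092). It fell with a log2 ratio of -2.10 (-2.12 to -2.08), and the OHC was the higher cell in 88.6% of pairs. Reads were in 30 of 32 OHCs (93.8%, Clopper-Pearson interval 79.2% to 99.2%) and 39 of 67 cIHCs (58.2%, 45.5% to 70.2%). A single cIHC, the one with 2092 CPM, gave 41.4% of that group's counts and was the only cIHC above every OHC. The log2 ratio was -2.77 when the highest OHC and the highest cIHC were left out.

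Ldha, subunit A, had 47.6 CPM in OHCs (cells 0, 0 and 447) and 100.2 CPM in cIHCs (cells 0, 49.1 and 741), a log2 ratio of 1.07 that lay within 2-fold of the median gene. Its direction turned between subsets of cells, with a log2 ratio of -0.83 among cells with Xist reads and 3.30 among those with Y-linked reads. Reads were in 11 of 32 OHCs and 47 of 67 cIHCs. Per kilobase, Ldhb was 94.1% of the pair in OHCs and 63.8% in cIHCs, and in single cells it was the larger part in 30 of 30 OHCs and 26 of 57 cIHCs with reads of either gene. Of counts not divided by length, Ldhb was 88.3% and 45.5%. Which subunit was the larger in pooled cIHCs therefore depends on the division by length. The summed level of both subunits was 406 and 184 CPM. The Spearman correlation of the subunits across cells was 0.03 in 32 OHCs and 0.15 in 67 cIHCs.

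**Figure D4:**
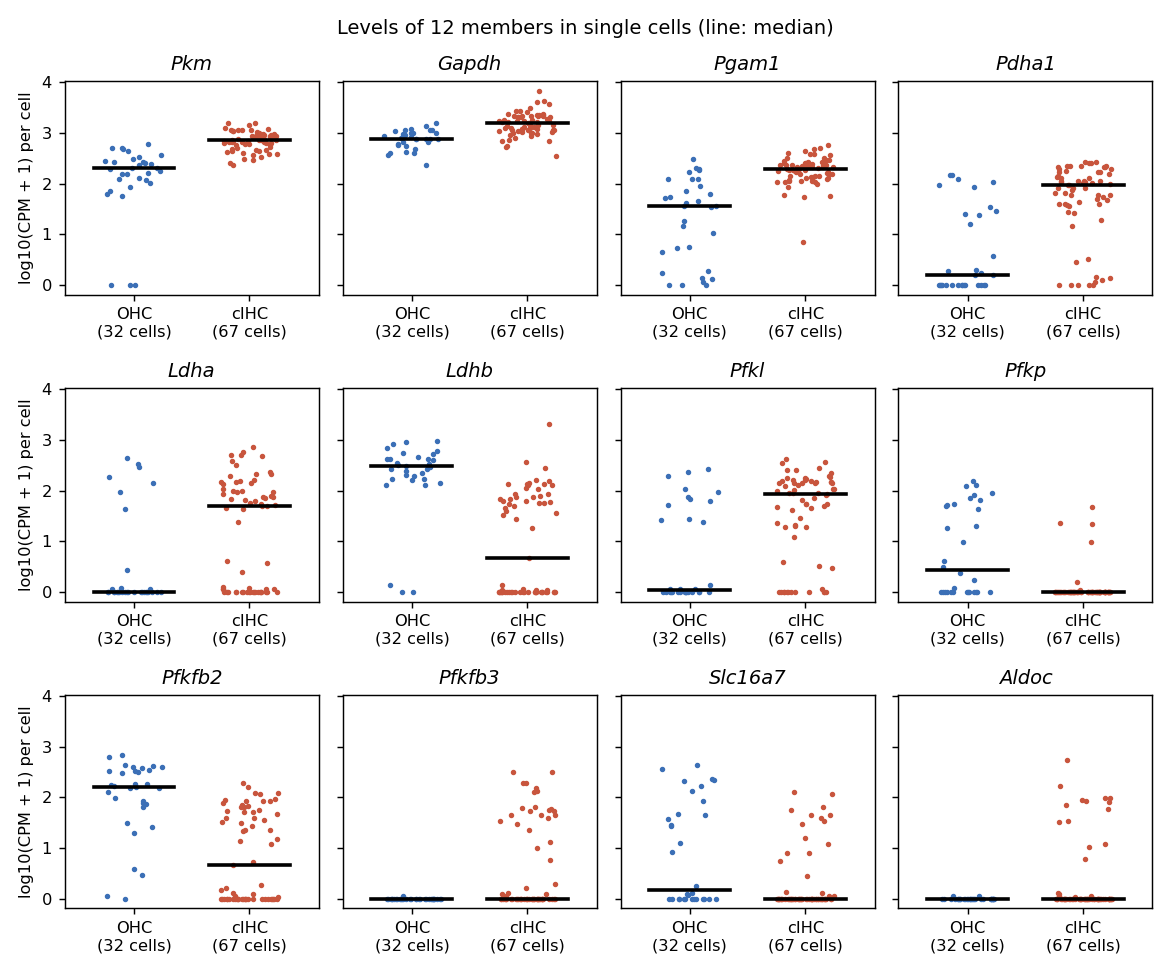
CPM per cell, as log10(CPM + 1), of 12 members in 32 OHCs and 67 cIHCs; each point is 1 cell and the line is the median. Pkm, Gapdh, Pgam1 and Pdha1 lie higher in cIHCs, Ldhb and Pfkfb2 lie lower with a cloud of cells near 0, and Pfkfb3 and Aldoc have reads in part of the cIHCs and almost none in OHCs.

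The pyruvate dehydrogenase complex admits pyruvate to the citric acid cycle, and its kinases (Pdk genes) switch it off. Pdha1, the catalytic alpha subunit, had 24.9 CPM in OHCs (cells 0, 0.55 and 149) and 103 CPM in cIHCs (cells 0, 94.1 and 270). It rose with a log2 ratio of 2.05 (2.01 to 2.09), 18 cIHCs lay above every OHC, and the cIHC was higher in 79.1% of pairs. Pdhb, the beta subunit, was within 2-fold at 209 CPM (cells 0, 207 and 495) and 344 CPM (cells 89.7, 324 and 805). The kinases Pdk1, Pdk2 and Pdk3 were within 2-fold as well, at 42.0 and 25.3, 20.0 and 33.3, and 29.8 and 35.6 CPM in OHCs and cIHCs, and Pdk4 had no read in either group. Together the kinases stood at 91.8 and 94.2 CPM. Pooled and per kilobase, Pdk3 was 49.9% of them in OHCs and 50.3% in cIHCs, but a single OHC gave 38.98% of that group's Pdk3 counts. Of counts not divided by length, Pdk3 was 32.5% and 37.8%, and Pdk1 45.8% and 26.9%. In single OHCs with reads of these genes, Pdk1 was over 50% in 15 of 26 cells and Pdk3 in 8, and in cIHCs in 13 and 25 of 62. For Pdk2, 1 OHC gave 41.3% of the counts, and the log2 ratio went from 0.74 to 1.32 with the highest cell of either group left out.

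Among the PFKFB enzymes the main form of OHCs was a smaller part of the pooled family in cIHCs. Pfkfb2, the heart form, had 210 CPM in OHCs (cells 0, 162 and 675) and 28.2 CPM in cIHCs (cells 0, 3.73 and 189). It fell with a log2 ratio of -2.90 (-2.93 to -2.88), and the OHC was higher in 85.2% of pairs. Reads were in 31 of 32 OHCs and 41 of 67 cIHCs. Pfkfb3, the inducible form whose kinase activity far exceeds its phosphatase activity, had 1 read in OHCs and 33.2 CPM in cIHCs (cells 0, 0 and 319). Its log2 ratio of 12.97 has an interval of 10.50 to 18.28. With the highest cell of either group left out, OHCs had 0 reads and the log2 ratio was at least 11.15, against a floor of 3 counts. Reads were in 29 of 67 cIHCs (43.3%, 31.2% to 55.96%), and 28 of these lay above every OHC, while the other cIHCs had none.

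Pfkfb4 was within 2-fold at 12.8 and 20.4 CPM, with a log2 ratio of 0.68. A single OHC gave 48.4% of that group's counts, and with the highest cell of either group left out the ratio was 1.44. The liver form Pfkfb1 was below 10 CPM, at 8.56 CPM in OHCs from 2 cells and 0.699 CPM in cIHCs. Per kilobase, Pfkfb2 made up 85.9% of the family in OHCs and 30.7% in cIHCs, Pfkfb3 0.0016% and 34.8%, and Pfkfb4 7.75% and 33.2%. In single cells with reads of the family, Pfkfb2 was over 50% in 29 of 32 OHCs and 21 of 56 cIHCs. Pfkfb3 was over 50% in 16 and Pfkfb4 in 15 of these cIHCs. The median share over cIHCs was 28.1% for Pfkfb2, 0.087% for Pfkfb3 and 2.06% for Pfkfb4. The summed level of the family was 232 CPM in OHCs and 82.5 CPM in cIHCs, so Pfkfb3 did not make up the fall of Pfkfb2 in counts. The Spearman correlation of Pfkfb2 and Pfkfb3 across the 67 cIHCs was 0.21. Pfkfb2 shares 154 exon bases with Yod1 on the other strand (79.6 and 39.5 CPM).

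Of the creatine kinases, the cytosolic brain form Ckb had 445 CPM in OHCs (cells 0, 417 and 1415) and 1007 CPM in cIHCs (cells 87.7, 831 and 2303). Its log2 ratio of 1.18 lay just within 2-fold of the median gene, with 81.1% of pairs higher in the cIHC. The mitochondrial form Ckmt1 had 241 CPM in OHCs (cells 0, 220 and 534) and 171 CPM in cIHCs (cells 0, 151 and 504), a log2 ratio of -0.49. The ratio of the pair shifted toward Ckb, from 61.4% to 83.5% per kilobase, and Ckb was the larger part in 20 of 32 OHCs and 65 of 67 cIHCs. Ckm, the muscle form, had no read in either group.

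Of the 13 members below 10 CPM in both groups, 3 (Slc2a10, Pdk4 and Ckm) had no read at all. The members just past the 2-fold limit were Pfkl and Tpi1 on the higher side (1.21 and 1.24 above the median gene) and Slc2a1 on the lower side (-1.36). Those just short of it were Ckb and Gapdh (0.93 and 0.86) and Pdk1 (-0.98). Without subtraction of the median gene, 12 members rose and 5 fell. The shares of all genes were not taken under that rule, and the median gene itself was higher in cIHCs. These counts therefore cannot show whether more members rose than among all genes.

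Since sexes differed between the groups, the ratios were also taken within cells of 1 kind. Among cells with Y-linked reads (24 OHCs, 12 cIHCs), 7 of the 8 higher members and 4 of the 5 lower ones kept their call. Ldhb (-3.51), Pfkfb2 (-2.37), Slc16a7 (-3.25), Pfkp (-2.86), Pkm (1.99) and Pgam1 (1.96) were among them, and Slc2a1 (-0.64) was not. Aldoc had a log2 ratio of 8.40 there and lost its call only because it did not reach 10 CPM. Among cells with Xist reads, which hold only 4 OHCs, 5 higher and 4 lower members stayed, and Pfkp (0.25), Pgk1 (0.13), Tpi1 (0.44) and Pfkl (1.00) did not. The median gene of that subset stood at 0.41, so Pfkp stayed below it and Pgk1 changed its side. In those cells Ldhb had a log2 ratio of -0.74, and its share of lactate dehydrogenase was 67.6% in the 4 OHCs and 69.0% in cIHCs, so the shift in that share is not seen there. Pdha1, Pgk1, Pdk3 and Pfkfb1 lie on chromosome X. In cells with Xist reads and in those with Y-linked reads, the log2 ratio was 1.94 and 2.43 for Pdha1, 0.13 and 2.09 for Pgk1, 1.94 and -0.72 for Pdk3, and -6.11 and -6.01 for Pfkfb1, so that Pdk3 turned its direction.

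Without the 6 OHCs and 4 cIHCs whose supporting cell and glia markers summed to at least 100 CPM, all 8 higher and 5 lower members stayed past the limit, 1 more member (Pfkfb1) fell, and the members' median log2 ratio was 0.33. Ldhb stood at -2.91 and Pkm at 1.76 in the remaining cells.

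Around the members, 94 further genes of glucose metabolism and its control were read from lists of the pathway. Of these, 55 reached 10 CPM, with a median log2 ratio of 0.30, which is 0.05 above the median gene. Among the 55, 7 rose (12.7%) and 9 fell (16.4%), beside 21.4% and 18.5% of all genes, so neither share exceeds that of all genes. Those named here reached 50 CPM in the higher group and had reads in 75% or more of its cells. Pyruvate carboxylase (Pcx), which turns pyruvate into oxaloacetate, had 6.75 CPM in OHCs (cells 0, 0 and 167) and 139 CPM in cIHCs (cells 0, 108 and 579) and rose, with a log2 ratio of 4.36. Ldhd, the mitochondrial enzyme for D-lactate, rose from 16.2 to 78.9 CPM, and transketolase (Tkt), of the pentose phosphate pathway, from 24.01 to 80.9 CPM. Gpd1l, related to the glycerol phosphate shuttle, fell from 96.2 to 20.4 CPM, and Dlat, the acetyl-transferring subunit of pyruvate dehydrogenase, from 85.5 to 45.8 CPM.

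Among 18 regulators, 13 reached 10 CPM, of which 2 rose (15.4%) and 5 fell (38.5%), beside 21.4% and 18.5% of all genes. Mlxip (MondoA), a sensor of glucose phosphates, had 663 CPM in OHCs (cells 145, 615 and 1512) and 165 CPM in cIHCs (cells 0, 132 and 888). It fell with a log2 ratio of -2.004, and the cIHC was higher in 5.83% of pairs. Txnip, a target of MondoA that restrains glucose uptake, fell from 135 to 76.9 CPM. The related factor Mlxipl (ChREBP), named after its values were seen, rose from 1.88 to 43.2 CPM. Hif1a was within 2-fold, at 58.7 and 72.2 CPM, and the mitochondrial pyruvate carrier genes Mpc1 and Mpc2 were too, at 67.6 and 55.9 CPM and at 242 and 182 CPM.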

How the data were processed

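The authors deposited 1 table of whole-number read counts per gene and cell. Per the submitters' processing notes, HISAT2 2.2.1, StringTie 2.2.1, featureCounts 2.0.1 and the mm10 build were used; their settings, the annotation and the strand setting are not given in the sources used here. All 99 cells were kept, grouped by their titles and summed to 1 sample per group, with no filter on cells or doublets, because cells were picked singly. Pooled CPM divides the sum by the group's total; intervals are exact Poisson for CPM, exact conditional binomial for ratios and Clopper-Pearson for shares of cells. Where a sum was 0, the floor was 3 counts over the group. The members and lists were chosen with earlier results of these data known. Every member is accounted for; of the other lists, genes with at least 50 CPM, reads in 75% of cells of the higher group and a ratio past 2-fold are named, at most 5 per list. Bsg, Emb, Hif1a, Mpc1, Mpc2, Mlxipl and the genes of the closing section fall outside this rule and were added with their values in view. CACGTG was added to the motifs later. Exon lengths and overlaps are from GENCODE M21, which need not be the authors' annotation; lengths join all transcripts of a gene, which affects values per kilobase. Near-identical copies were found with BLAST 2.17.0. The ratio step was tested on simulated counts of 9172 genes for the comparison of cIHCs with OHCs: 98.5% of 200 changed genes and 2.65% of unchanged genes passed 2-fold. The changed genes were given ratios well past 2-fold and were a far smaller share of genes than in the data. Cells were drawn independently, with no difference between animals. The simulation checks the calculation only, and its shares are no error rates for the calls made here. Alternatives were other ways of pooling, TMM factors (edgeR 4.0.16 in R 4.3.3), median-of-ratios scaling, other totals, subsets of cells, thinned cells and other minimum levels. The remaining steps ran in Python 3.11.15 (scipy 1.17.1, pandas 2.3.3, numpy 2.4.6; plots by matplotlib 3.10.9).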

Additional observations from a re-analysis of the deposited data

How the results depend on the processing

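No paired analysis was possible because titles give numbers to cells within a group only, and no result rests on a test. The members' median log2 ratio of 0.70 was 0.61 when CPM was averaged over cells, 1.27 for the median over cells (16 members with a value), 0.92 without the highest cell of each gene, 0.51 with TMM factors, 0.50 with median-of-ratios scaling, 0.65 without mitochondrial genes in the totals, 0.62 without the 10 most abundant genes, 0.58 without cells with few genes, 0.44 among cells with Xist reads, 0.35 among cells with Y-linked reads, 0.82 in thinned cells, 0.74 with no minimum CPM, 0.89 with a minimum of 50 CPM and 0.33 without cells with markers of supporting cells or glia, an alternative chosen after seeing the data. Its excess over the median gene of the same setting, 0.45, ran from 0.03 (Xist reads) to 0.69 (minimum of 50 CPM). The median of all genes, 0.25, was 0.03 with TMM factors and 0.02 with median-of-ratios scaling, and the same 8 higher and 5 lower members were called under both. The 8 higher members became 5 with a minimum of 50 CPM, where fewer genes enter. They were 12 with no minimum, where Pfkl and Tpi1 lost their calls. They were 7 for the median over cells, where 5 of the 8 remained and Hk1 and Pfkm were gained. Aldoc, Pfkfb3 and Pgk1 had no ratio there, because the median cell of 1 or both groups was at 0. For Pgk1 the median cell was at 0 in OHCs and 21.97 CPM in cIHCs. The higher members were 10 without cells with few genes and in each subset by Xist or Y-linked reads. For the median over cells 3 members fell, of which 2 were among the 5 and Ckmt1 was gained. Slc2a1, Slc16a7 and Pfkp had no ratio there, as their median cIHC was at 0. Among cells with Xist reads 10 members fell, of which 4 were among the 5. With no minimum 8 fell, and with a minimum of 50 CPM 3 fell. Among cells with Xist reads, where OHCs number 4, Pfkp had a log2 ratio of 0.25, still below the median gene of that subset (0.41). Pgk1, at 0.13, changed its side of the median gene there. The cause was not tested. Across 12 settings, 16 of 28 members kept their side of the median gene wherever they had a value. Members with few cells with reads are the least precise, as single cells can give much of their counts.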

Other observations

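The further genes of the lists that passed 2-fold but fall outside the naming rule are given here, chosen after their values were seen. Among those that rose, Myc, a transcription factor that activates many glycolytic genes, had 1 read in OHCs and 21.7 CPM in cIHCs, with reads in 50.7% of cIHCs. Pygm, the muscle glycogen phosphorylase, rose from 1.56 to 18.3 CPM, and the enolase relative Eno4 was at 0 in OHCs and 10.6 CPM in cIHCs. Among those that fell, Gamt, the last enzyme of creatine synthesis, went from 63.7 to 7.15 CPM, with the cIHC the higher cell in 9.93% of pairs. Prkaa2, a catalytic subunit of the energy sensor AMPK, went from 37.4 to 9.45 CPM, the nuclear receptor Esrra from 20.8 to 8.18 CPM, and the aromatic amino acid transporter Slc16a10 from 15.7 to 4.45 CPM. Mlx, the partner of both MondoA and ChREBP, went from 65.2 to 37.9 CPM.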
